A study of Mus musculus with 4 samples.

Results

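Occupancy of the Polycomb protein RYBP was examined at 9 mouse genes that act upstream of or together with the Hox genes: Cdx1, Cdx2, Cdx4, Meis1, Meis2, Meis3, Pbx2, Pbx3 and Pbx4. These genes were taken by name, and each was placed on the mm9 GENCODE annotation as a locus, meaning its gene body and 5.0 kb upstream. They are 9 of 22219 protein-coding gene symbols to which the same procedure was applied. Chromatin immunoprecipitation followed by sequencing (ChIP-seq) had been carried out on FLK1+ mesoderm from wild-type embryoid bodies, which are aggregates of differentiating embryonic stem (ES) cells, at day 3.75 by the labels. FLK1 is the receptor that marks mesoderm able to form blood and endothelium. All samples share the strain C57Bl/6 X Sv129. There were 2 ChIP samples, made with an antibody against DEDAF, another name of RYBP, and 2 input samples without antibody that were not analysed here. The series describes 2 independent differentiations. The study's methods put the RYBP experiment a little later than the labels do and name J1 as the wild-type ES cell line. They describe enrichment of FLK1+ cells, while the series text adds a sort for PDGFRa- cells and names SCL as the precipitated protein. The identity of the cells could not be checked against marker expression, since the files hold peak positions and not RNA.

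RYBP belongs to the non-canonical Polycomb repressive complexes 1, which attach ubiquitin to histone H2A and commonly sit at CpG-rich promoters. The Cdx genes encode caudal-type homeobox transcription factors that switch on Hox genes in the posterior embryo, and Cdx1 and Cdx4 are also known for their part in the making of embryonic blood. Meis and Pbx proteins are homeodomain proteins of the TALE class, named after a 3-residue insertion in the homeodomain, which bind DNA together with Hox proteins and shape which sites these occupy.

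Replicate 1 contained 14794 peaks and replicate 2 contained 18154 peaks, called separately by the authors. The files carry no read depth. The authors' merged list held 22409 regions, and every one was identical to a region of the union of both peak lists. It is therefore a union, so each merged region was also sorted by whether a peak of both replicates overlapped it by at least 1 bp, as 44.2% did over the whole list. With 1 group and 2 replicates, no test was made. Counts are given beside the share of all protein-coding genes that met the same criterion, and this share is a yardstick and not a test.

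RYBP regions lay at 8 of the 9 loci, all except Cdx4. The same held for 57.0% of all genes. In all 8 of these, at least 1 region was found in both replicates, against 38.9% of all genes. A merged region lay within 2.5 kb of an annotated start site of the same 8 genes (53.4% of all genes). That region was found in both replicates at 7 genes, namely Cdx1, Cdx2, Meis1, Meis2, Meis3, Pbx3 and Pbx4 (36.8% of all genes). At Pbx2 the start-site region came from replicate 2 alone, and the shared region lay upstream, over another gene. The start-site region was at least 4 kb wide at 3 of the 9, namely Cdx2, Meis1 and Meis2, against 2.63% of all genes. Without replicate 1 this count was 1, Meis2, against 1.65% of all genes. Merged regions covered at least 50% of the locus at Cdx2 alone among the 9, against 1.58% of all genes, and without replicate 1 at 0 of the 9, against 1.04%.

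**Figure D1:**
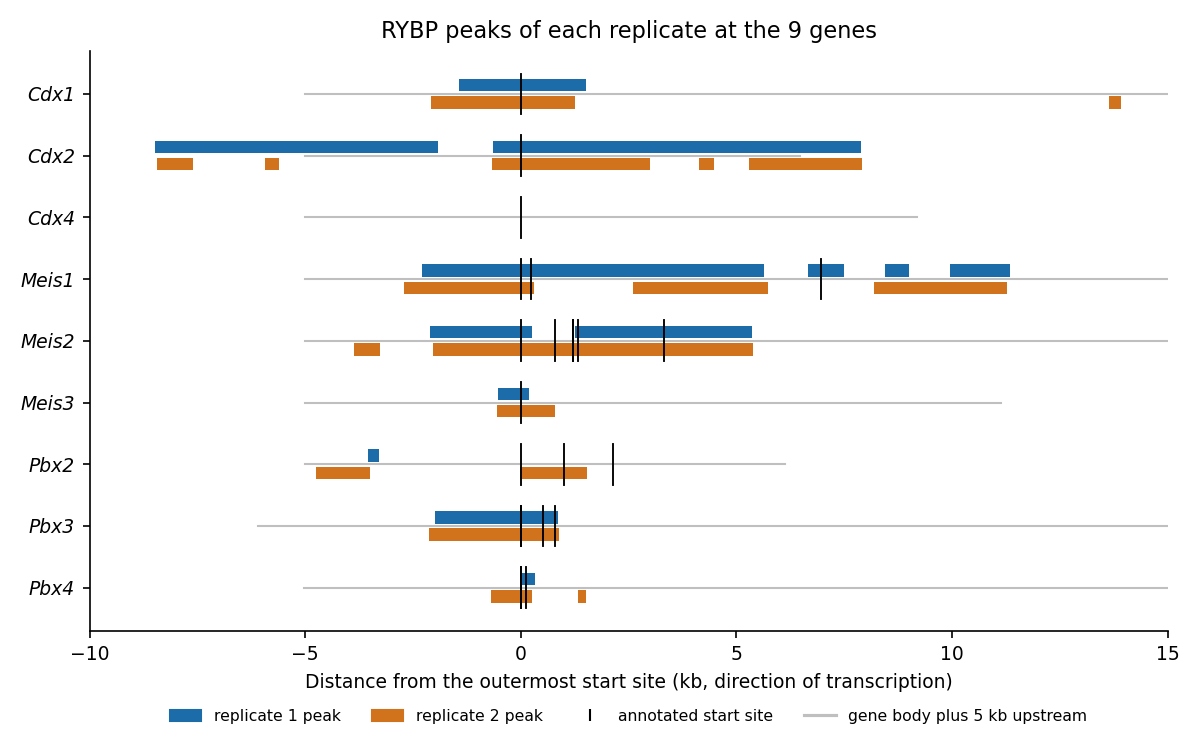
Peaks of replicate 1 (blue, above) and replicate 2 (orange, below) at each of the 9 genes, by distance in kb from the outermost start site along the direction of transcription. Black ticks are annotated start sites and grey lines the locus; Cdx2, Meis1 and Meis2 hold the widest regions, Cdx4 holds none, and peaks more than 15 kb inside a gene are not drawn.

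Among the caudal genes the pattern ran from near-complete coverage to no region. At Cdx2 (chromosome 5, 148112381 to 148118846, minus strand), a regulator of trophectoderm, intestine and posterior axis, 1 merged region of 8593 bp (148110925 to 148119517) took in the whole gene body. It began 671 bp before the start site and ran 1456 bp past the annotated end of the gene. It covered 2261 bp of exon, of which 933 bp was coding, and 4205 bp of intron. Replicate 1 reported it as 1 peak of 8530 bp, whereas replicate 2 reported peaks of 3658 bp at the start, 348 bp inside the gene and 2625 bp at its end. The widths of the replicates thus differed inside the gene, and both covered its start and its end.

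The highest fold enrichment at Cdx2, which is the authors' linear ratio of pile-up to local background, was 4.01 in replicate 1 and 4.29 in replicate 2, a mean of 4.15 ± 0.194 (SD, n = 2). The share of the Cdx2 locus under peaks was 89.0% in replicate 1 and 45.1% in replicate 2, with a mean of 67.1% ± 31.0 (SD, n = 2). Under merged regions it was 89.2%, which placed Cdx2 at percentile 99.7 among all genes. A second merged region of 6577 bp (148120759 to 148127335) began 1913 bp upstream of the Cdx2 start. Its fold enrichment was 3.79 and 3.80 in replicates 1 and 2. Replicate 1 covered it whole and replicate 2 covered 17.9% of it, with 2 peaks (148124447 to 148124780 and 148126449 to 148127288) that both lay more than 5.0 kb upstream of Cdx2.

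Cdx1 (chromosome 18, 61178516 to 61195853, minus strand), a caudal gene of the primitive streak and gut, had a start-site region of 3589 bp (61194349 to 61197937) in both replicates, with 2084 bp of it before the start site. Fold enrichment there was 3.38 in replicate 1 and 3.98 in replicate 2, with a mean of 3.68 ± 0.430 (SD, n = 2). Peaks covered 13.2% of the locus in replicate 1 and 16.1% in replicate 2. A second region of 268 bp (61181942 to 61182209) lay in an intron and was found in replicate 2 alone, with the highest fold enrichment at this gene, 4.66. The start-site region was thus the one shared by the replicates, while the strongest single value was not shared.

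Cdx4 (chromosome X, 100516737 to 100525931, plus strand), also linked to blood formation, overlapped no peak of either replicate. Its nearest merged region lay 126313 bp from its start. Most X-linked genes had no region near a start site. A start site lay within 2.5 kb of a merged region at 180 of 927 X-linked genes (19.4%) and at 11678 of 21275 autosomal genes (54.9%). The absence of a call at Cdx4 is a statement about the peak threshold, and a weaker signal below it could not be seen in these files.

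Meis1 (chromosome 11, 18780433 to 18918961, minus strand), a TALE cofactor required in blood stem cells, had the most regions of the 9 genes, 5 of the 18. The start-site region spanned 8437 bp (18913232 to 18921668) and covered its 2 outer start sites. Fold enrichment there was 3.99 in replicate 1 and 4.09 in replicate 2, with a mean of 4.04 ± 0.0694 (SD, n = 2). Replicate 1 reported 1 peak of 7935 bp, and replicate 2 reported peaks of 3016 bp over the start and 3120 bp inside the gene. Both replicates therefore covered the start, and the stretch between the 2 replicate 2 peaks was called in replicate 1 alone.

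A further Meis1 region of 3169 bp (18907609 to 18910777) lay in an intron, with fold enrichments of 3.18 and 3.76. It came within 2.5 kb of the start site of Gm16140, a gene annotated on the other strand inside Meis1. The other 3 regions were found in replicate 1 alone and were 819, 299 and 291 bp wide, with fold enrichments of 2.79, 2.97 and 2.94. The 819 bp region (18911474 to 18912292) lay on the internal start site of Meis1. All 3 had a fold enrichment under 3.29, the median of all replicate 1 peaks.

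Meis2 (chromosome 2, 115688800 to 115891575, minus strand), which acts in limb, heart and neural crest, had a start-site region of 7503 bp (115886186 to 115893688). Fold enrichment there was 3.88 in replicate 1 and 4.53 in replicate 2, with a mean of 4.21 ± 0.458 (SD, n = 2). Here replicate 2 reported 1 peak of 7424 bp and replicate 1 a pair, of 2379 and 4114 bp. The gene has 10 annotated start sites. The 6 outer ones were within 2.5 kb of the region, and the 4 inner ones, between 23793 and 192896 bp into the gene, were not near any. A 611 bp region (115894845 to 115895455) upstream was found in replicate 2 alone, with a fold enrichment of 3.32.

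Meis3 (chromosome 7, 16760729 to 16771853, plus strand), a neural member of the family, had 1 region of 1359 bp (16760165 to 16761523) on its start site. Its fold enrichment was 2.87 in replicate 1 and 3.99 in replicate 2, with a mean of 3.43 ± 0.793 (SD, n = 2), at percentiles 8.16 and 67.5 of the peaks of the respective replicate. It was a weak peak of replicate 1 and an ordinary one of replicate 2. Among the 3 Meis genes, Meis1 and Meis2 thus both had start-site regions above 4 kb, and the Meis3 region was narrower than theirs but above the median of 1070 bp for start-site regions of all genes.

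The Pbx genes, whose products pair with Meis and Hox proteins on DNA, had no start-site region above 4 kb. Pbx3 (chromosome 2, 34026977 to 34228660, minus strand), which acts in the brain stem, had 1 region of 3016 bp (34226666 to 34229681). Its fold enrichment was 4.75 in replicate 1 and 4.22 in replicate 2, with a mean of 4.48 ± 0.376 (SD, n = 2). This was the best matched locus, since the base pairs shared by the replicates were 0.942 of those covered by either. It was also the one region found in both replicates with the higher fold enrichment in replicate 1, against 9 with the higher value in replicate 2. Over all peaks the medians were 3.29 in replicate 1 and 3.60 in replicate 2, and by percentile within each replicate's own peaks replicate 1 was the higher at 5 of these 10 regions and replicate 2 at 5. The region held 4 of the 5 start sites of Pbx3, and the start site 158594 bp into the gene was not near a region.

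Pbx4 (chromosome 8, 72356523 to 72397062, plus strand), a family member known from the testis, had a start-site region of 1016 bp (72355861 to 72356876). Its fold enrichment was 4.28 in replicate 1 and 4.35 in replicate 2, with a mean of 4.31 ± 0.0480 (SD, n = 2). The replicates were close in enrichment and differed in width. The replicate 1 peak of 292 bp began inside the gene, the replicate 2 peak of 947 bp lay mostly before the start, and they shared 223 bp. Each of 2 further regions of 196 bp lay in an intron and was found in replicate 2 alone, with fold enrichments of 3.19 and 3.69.

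Pbx2 (chromosome 17, 34728211 to 34734345, plus strand), a broadly expressed Pbx gene, was the locus at which the replicates shared the smallest part of what they covered, 0.0182 of the base pairs under either. A start-site region of 1554 bp (34728188 to 34729741) was called in replicate 2 alone, with a fold enrichment of 3.20. A region of 1468 bp (34723455 to 34724922), which ended 3289 bp upstream of the start, was called in both, with fold enrichments of 2.74 and 3.69 and a mean of 3.21 ± 0.677 (SD, n = 2). Its replicate 1 peak of 263 bp and replicate 2 peak of 1260 bp shared 55 bp. Both regions lay within 2.5 kb of the start of Gpsm3, the gene just upstream on the same strand, and the upstream region overlapped Notch4, a Notch receptor gene. That upstream region is the one that places Pbx2 among the 8 loci with a region in both replicates, so neither region is assigned to Pbx2 alone by the annotation. Peaks covered 2.36% of the Pbx2 locus in replicate 1 and 25.3% in replicate 2.

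**Figure D2:**
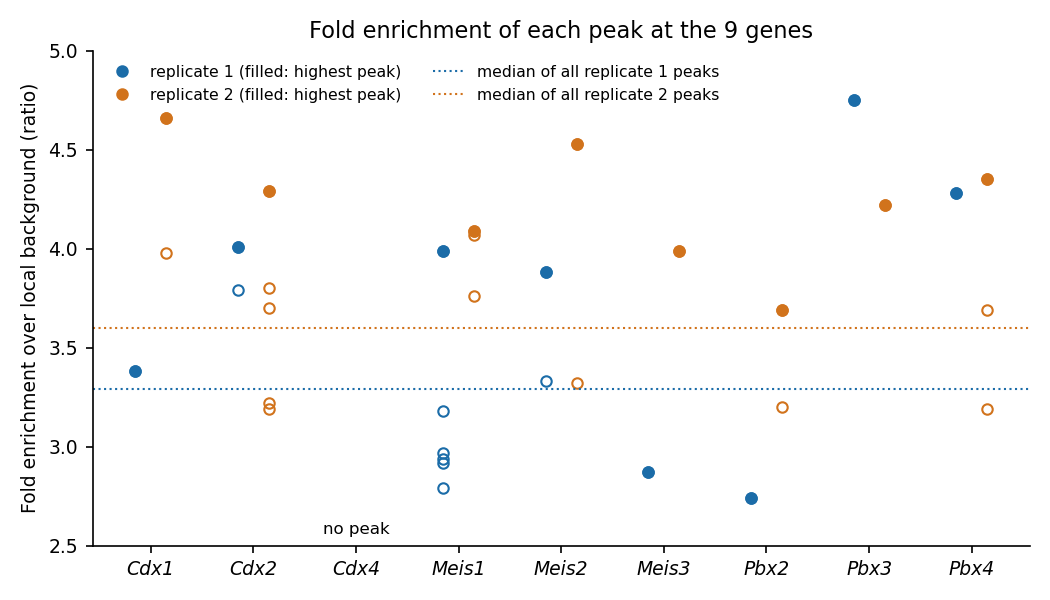
Fold enrichment over local background of every peak at each gene, for replicate 1 (blue) and replicate 2 (orange); filled circles mark the highest peak of the locus in that replicate and dotted lines the medians of all peaks, 3.29 and 3.60. The axis starts at 2.5; the highest replicate 1 value of Meis3 and Pbx2 (2.87 and 2.74) lies below the replicate 1 median, and all highest replicate 2 values lie above the replicate 2 median.

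Over the 9 genes there were 18 merged regions. Of these, 10 were found in both replicates, 3 in replicate 1 alone and 5 in replicate 2 alone. The shared part was thus 55.6%, beside 44.2% of all merged regions. Of the 9 regions that overlapped a start site, 7 were shared, compared with 3 of the 9 that did not. The same split was not computed over all merged regions. Sharing required 1 bp of overlap by each replicate, whatever the width of the region. The shared start-site regions had a median width of 3589 bp and the regions off start sites one of 299 bp. The median was 766 bp for all merged regions and 1070 bp for start-site regions of all genes, shared or not. Of the 28 annotated start sites of the 9 genes, 22 lay within 2.5 kb of a region, beside 52.1% of the 45993 start sites of all genes. Start sites of 1 gene that lie close together share a region and are not separate observations.

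Start-site sequence was then compared with occupancy. RefSeq gives a promoter, 250 bases before and 50 after the start, for 7 of the 9 genes. Cdx1 and Pbx3 have no entry. The 250 upstream bases are shown for 4 genes, in the orientation of the gene, with CpG dinucleotides in capitals. Cdx2 and Meis1 are shown as broadly occupied genes, Pbx4 as one with a region near the median width whose replicate peaks differ in extent, and Cdx4 as the gene without a region. The sequences are from RefSeq (GRCm38.p6), and each matched the mm9 genome exactly once. Cdx2 is at chr5:148118826-148119075 (minus strand), Meis1 at chr11:18918973-18919222 (minus strand), Pbx4 at chr8:72356273-72356522 (plus strand) and Cdx4 at chrX:100516487-100516736 (plus strand), all in mm9.
Cdx2: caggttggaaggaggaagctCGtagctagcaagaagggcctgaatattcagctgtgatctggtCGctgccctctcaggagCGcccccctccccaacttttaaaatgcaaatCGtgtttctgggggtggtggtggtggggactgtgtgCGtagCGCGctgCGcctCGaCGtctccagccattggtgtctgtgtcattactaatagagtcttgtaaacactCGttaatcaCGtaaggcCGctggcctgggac
Meis1: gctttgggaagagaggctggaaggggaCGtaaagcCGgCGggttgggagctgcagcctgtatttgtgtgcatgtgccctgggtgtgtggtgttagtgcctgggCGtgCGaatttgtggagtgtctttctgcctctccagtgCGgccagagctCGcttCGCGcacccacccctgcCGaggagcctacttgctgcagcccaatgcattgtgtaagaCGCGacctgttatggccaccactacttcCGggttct
Pbx4: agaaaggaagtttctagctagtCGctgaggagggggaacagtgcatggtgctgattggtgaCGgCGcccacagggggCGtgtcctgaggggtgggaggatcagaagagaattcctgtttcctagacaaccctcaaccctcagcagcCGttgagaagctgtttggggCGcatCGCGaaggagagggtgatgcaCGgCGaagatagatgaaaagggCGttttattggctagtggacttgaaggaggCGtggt
Cdx4: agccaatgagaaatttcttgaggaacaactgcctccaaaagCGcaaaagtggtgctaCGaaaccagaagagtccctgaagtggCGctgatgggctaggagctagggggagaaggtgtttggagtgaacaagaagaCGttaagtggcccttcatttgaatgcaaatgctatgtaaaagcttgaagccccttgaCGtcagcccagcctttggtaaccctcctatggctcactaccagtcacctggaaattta

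These 250 bases held 13 CpG in Cdx2, 13 in Meis1, 12 in Pbx4 and 5 in Cdx4. Peaks of both replicates lay over the whole stretch in Cdx2 and in Meis1. In Pbx4 the replicate 2 peak covered all 250 bases and the replicate 1 peak none, and in Cdx4 no base was covered. The unoccupied gene thus had the fewest CpG of the 4. Among the promoters not shown, Meis2 held 7 CpG, Meis3 12 and Pbx2 27. A low count thus also occurred at Meis2, which was broadly occupied, although only replicate 2 had a peak over these 250 bases. The highest occurred at Pbx2, whose start-site region came from replicate 2 alone. The RefSeq starts of Meis2 and Pbx2 lie 1220 and 993 bp inside the outermost annotated start.

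Short motifs were searched on both strands of the 300-base promoters. The letters TTTATG or TTTATT, a core bound by CDX proteins, occurred in 2 of the 7 genes, Meis2 and Pbx4, and in 27.6% of 32851 promoters of the same length. The MEIS core TGACAG (19.2% of promoters), the PBX-Hox pair pattern TGATNNAT (8.85%) and the GATA core GATAA (25.4%) occurred in 0 of the 7. The shorter letters TGAT alone were not counted. The E-box CANNTG, the kind of site that SCL binds with its partners, occurred in Cdx2, Cdx4, Meis1 and Pbx2, which is 4 of the 7, and in 72.3% of promoters. These are letter matches in short windows, and no factor other than RYBP was analysed here.

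CpG density within 500 bp on each side of the outermost start site had a median of 4.10 per 100 bp over all genes. It was 14.7 per 100 bp at Pbx3 and 10.3 at Cdx1, which are GC-rich starts. It was 5.70 at Cdx2, 5.20 at Meis2, 5.10 at Pbx4, 4.60 at Meis3 and 4.10 at Meis1, all at or somewhat above that median. The lowest values were 2.30 at Cdx4 and 2.00 at Pbx2. Cdx4 and Pbx2 thus held the lowest densities of the 9 at the outermost start. Cdx4 had no region, and the Pbx2 start-site region was found in 1 replicate. The Pbx2 start 997 bp further in had a density of 7.20.

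Over all genes, the share with a region near a start site was 31.0% at a density of 2 to 3 CpG per 100 bp, the range of Cdx4 and Pbx2. It was 62.5% at 3 to 5, 82.0% at 5 to 8 and 95.1% at 8 or more. On the X chromosome, 6 of 135 genes in the range of Cdx4 had a region, or 4.44%. The breadth of a start-site region did not follow this order among the 9 genes. Meis1, at the median density, had a merged region of 8437 bp, while Pbx3, at percentile 99.6 for density, had one of 3016 bp. That contrast came from replicate 1, with peaks of 7935 and 2840 bp. In replicate 2 the peak over the Meis1 start and the Pbx3 peak were both 3016 bp wide. Meis2, at a density of 5.20, had a replicate 2 peak of 7424 bp.

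**Figure D3:**
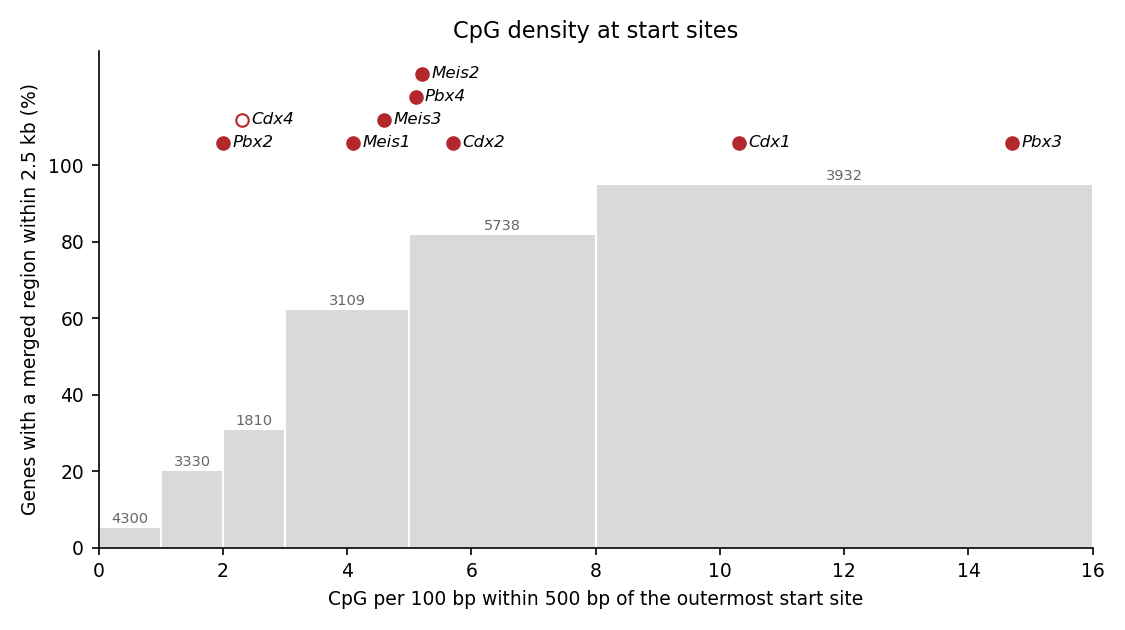
Grey bars give the percent of all genes with a merged region within 2.5 kb of a start site, by CpG per 100 bp within 500 bp of the outermost start site, with the number of genes above each bar. The 9 genes are placed above the bars at their own density, filled where a region lay near a start site; Cdx4 is the open circle.

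Within genes, start sites without a region were poor in CpG. The 4 inner start sites of Meis2 had between 1.0 and 1.5 CpG per 100 bp, whereas its 6 outer ones had between 3.0 and 6.2. The inner start of Pbx3 had 1.40, and its 4 outer ones had between 7.60 and 14.7. In Pbx2 the density was 2.00 at the outermost start and 7.20 at the start 997 bp further in, and the replicate 2 region covered both. The internal start of Meis1 had 0.600 and lay on a region found in replicate 1 alone.

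The regions themselves showed the same division. The 9 member regions on a start site had a median of 4.18 CpG per 100 bp and the 9 off start sites one of 1.00. The 10 found in both replicates had a median of 4.09 and the 8 found in 1 replicate one of 0.864. Over all merged regions these medians were 6.02 and 2.08. The upstream Cdx2 region, shared by the replicates and off the start, held 2.02, and the upstream Pbx2 region held 7.43.

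Coverage of the locus depends on gene length, and Meis1, Meis2 and Pbx3 are long genes. In base pairs, merged regions covered 13015 bp at Meis1, 10225 bp at Cdx2, 8114 bp at Meis2, 3857 bp at Cdx1, 3022 bp at Pbx2, 3016 bp at Pbx3, 1408 bp at Pbx4 and 1359 bp at Meis3. As a share of the locus this was 89.2% at Cdx2, 27.1% at Pbx2, 17.3% at Cdx1, 9.07% at Meis1, 8.43% at Meis3, 3.91% at Meis2, 3.09% at Pbx4 and 1.46% at Pbx3. Meis1 was thus first by base pairs and Cdx2 first by share. The median share over the 9 was 8.43%, beside 0.782% over all genes, whose 90th percentile was 14.4%. From replicate 1 alone the medians were 3.12% and 0%, and from replicate 2 alone 6.42% and 0.448%.

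The genes upstream of, beside or downstream of these 9 were read in the same way. Of the 39 Hox genes, the targets and partners of the 9, all had a region found in both replicates at a start site, 37 had a start-site region of at least 4 kb, and 38 were covered over at least 50% of the locus. The median covered share of a Hox locus was 92.8%, and Hoxa2 and Hoxa5 were among those at 100%. Neighbouring Hox genes share regions, so these counts are not independent. Under merged regions Cdx2 lay within the range of the Hox genes, from 46.9% to 100%, and the other 8 members lay below it. In replicate 2 alone the Cdx2 share was 45.1%, and the Hox range was not recomputed from 1 replicate.

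The 3 genes of the ParaHox group other than the Cdx genes each had more than 50% of the locus covered, with 73.4% at Gsx1 and 69.4% at Gsx2. The Cdx genes belong to this group by descent, and among them Cdx1 had 17.3% and Cdx4 0%. Of 12 other TALE homeobox genes, 11 had a region found in both replicates at a start site, 6 had one of at least 4 kb and 5 were covered over at least 50% of the locus. The highest shares were 100% at Irx3 and 78.6% at Irx2, Iroquois genes of early patterning. None of the Meis or Pbx genes reached 50%.

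Of 10 genes of the retinoid pathway, whose signal acts on Hox and Cdx genes, all 10 had a region near a start site and 9 had one found in both replicates. The highest covered shares were 84.6% at Cyp26a1 and 59.8% at Cyp26c1, which encode enzymes that break down retinoic acid. Of 9 genes of posterior Wnt, Fgf and Gdf signalling and its effectors, 8 had a start-site region in both replicates, with the highest shares at Fgf8 (65.0%) and Fgf4 (47.5%). Wnt8a had no region. All 6 further activators of Hox genes had a start-site region in both replicates, with 79.8% of the locus covered at Gbx2. The median shares of these lists were 26.8%, 19.9% and 23.2%.

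**Figure D4:**
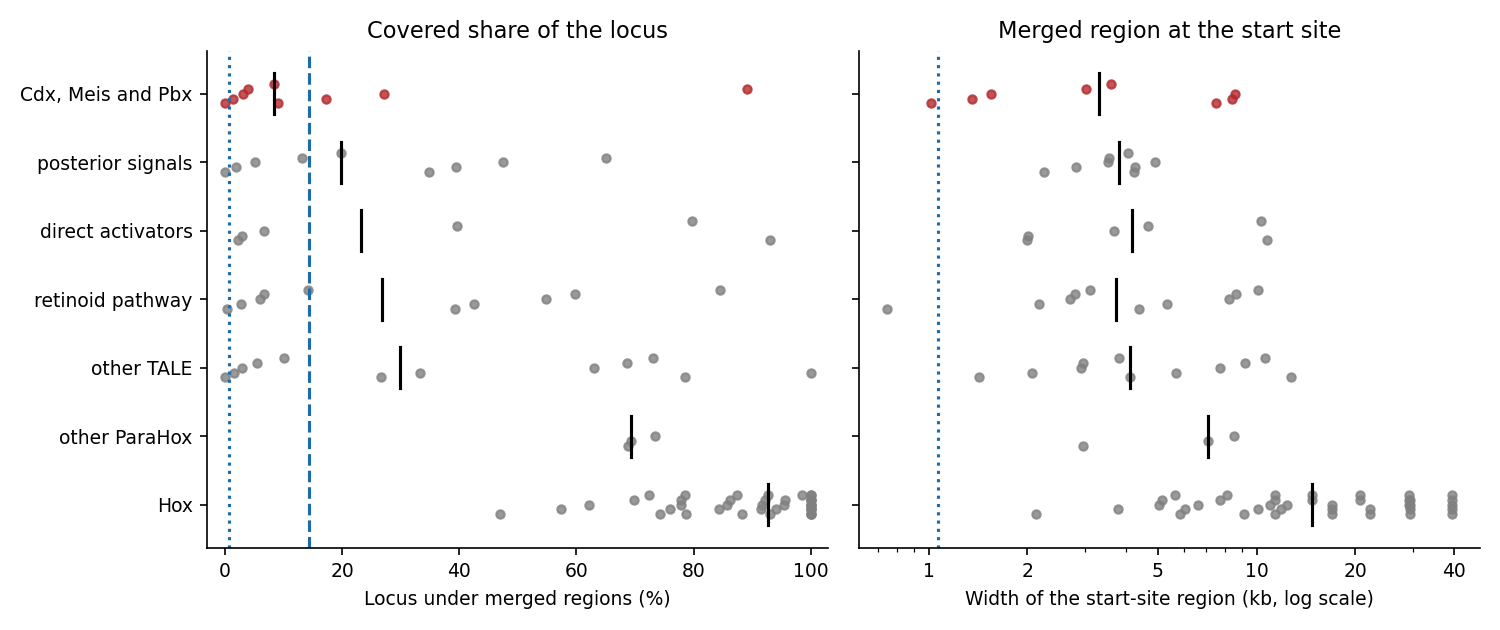
Left, percent of each locus under merged regions, with 1 point per gene; right, width of the widest merged region near a start site for genes that have one, on a log axis in kb. Red points are the 9 genes and grey points the other lists, black bars are list medians, and blue lines mark all genes (dotted, median, 0.782% at left and 1070 bp at right; dashed, 90th percentile, 14.4%); the 9 genes run from 0% at Cdx4 to 89.2% at Cdx2.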

How the data were processed

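RYBP ChIP-seq data from 2 ChIP samples were used; the 2 inputs were not analysed here. As the study's methods and labels state, cells were fixed with EGS, a long-arm protein cross-linker, before formaldehyde, paired-end reads were aligned to mm9 with Bowtie 1.1.2b, duplicates were removed, and the authors called broad peaks in each replicate with MACS2 2.0.10. Broad calling joins neighbouring enriched stretches, so widths depend on its settings. The deposited columns per peak are a fold enrichment (a linear ratio), a −log10 p-value, a −log10 q-value and a score derived from the q-value. The lowest deposited −log10 q was 1.00 in replicate 1 and 1.01 in replicate 2. The authors' merged list has positions only. Depth is unknown from the files, and the study lists more mapped reads for replicate 1, which has fewer peaks.

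Loci and start sites of protein-coding transcripts were taken from GENCODE vM1 (mm9). Starts in the replicate 2 list were moved by 1 bp to match the merged list. Overlaps were computed in Python 3.11.15 with pandas 2.3.3 and NumPy 2.4.6, and the union with bedtools 2.31.1. A merged region counted at 1 bp of overlap. Overlap and coverage functions were tested on simulated data. GC and CpG were read from the mm9 genome.

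The 9 genes, the other gene lists and the criteria were chosen with earlier results of these data known. All 9 genes were named. Of the other lists, the 2 genes with the largest covered share and those without a region were named (ties at 100% among the Hox genes were broken by order, and 1 gene is not reported here), as were genes whose start lies near a member's region. Notch4 was named after its position had been seen. Alternatives were the gene body alone or with 10 kb upstream, start windows of 1 and 5 kb, the outermost start alone, a −log10 q of at least 2, a fold enrichment of at least 3, 50% coverage in each replicate, a single replicate, and the central 500 bp of a region.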

Additional observations from a re-analysis of the deposited data

How the results depend on the processing

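The counts of genes with a region were 8 of 9 under every alternative tried for any region at the locus. With both replicates required, 7 remained on the gene body alone and 6 with a −log10 q of at least 2, a fold enrichment of at least 3, or 50% of the region covered in each replicate. The count of start-site genes ranged from 7 without replicate 2 to 8 without replicate 1, and Pbx2 was the gene lost. It was 6 with the stricter thresholds and both replicates required. The 18 regions became 17 without replicate 1 and 15 without replicate 2, 12 with a −log10 q of at least 2, and 23 with 10 kb upstream. The count of genes with a start-site region of at least 4 kb ranged from 1 without replicate 1 to 3 without replicate 2, and the count covered over at least 50% from 0 to 1, both added after the data had been seen. The median covered share, 8.43%, was 6.42% without replicate 1 and 3.12% without replicate 2, so replicate 2 decides that median by more than 1.5 times. By gene, leaving out replicate 2 lowered the share to 2.36% at Pbx2, 0.641% at Pbx4 and 4.40% at Meis3, and leaving out replicate 1 lowered it to 45.1% at Cdx2. The median of the highest fold enrichment, 4.10, was 4.25 without replicate 1 and 3.94 without replicate 2. In the central 500 bp the median GC content of the regions was 50.8% in place of 53.0%, and the median CpG density 1.5 per 100 bp in place of 3.20. Among the 3 widest start-site regions, the middle held 0.200 at Meis1 and 1.00 at Cdx2, against 3.59 and 3.99 over the whole regions, whereas at Meis2 it held 8.80 against 4.42. Counts that require both replicates could not be recomputed from 1. No paired analysis was possible because replicate numbers are shared only between ChIP and input, and inputs were not analysed here. Peak lists without depth or input values cannot tell a weak signal from none.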

Other observations

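Beyond the 5.0 kb limit, further regions lay near several of the 9 genes. At Cdx2, the second upstream region reached the annotated end of Prhoxnb. On the other side, between Cdx2 and Pdx1, the ParaHox gene required for the pancreas, regions found in both replicates were 2110, 1036 and 8542 bp wide, the last over Pdx1 itself (chromosome 5, 148081227 to 148089768). Meis1 had a region of 1641 bp in both replicates that began 7107 bp upstream of its start, and Meis2 one of 4279 bp that began 6198 bp upstream. Upstream of Cdx1, in the direction of Pdgfrb, 2 regions of 976 and 574 bp were each found in 1 replicate. No merged region lay within 60 kb of Cdx4. These genes and regions were chosen after their positions had been seen.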
